A study of Saccharomyces cerevisiae and Neurospora crassa and Schizosaccharomyces pombe with 13 samples.

Results

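Of the 9730 genes in the deposited annotation of Neurospora crassa, a filamentous fungus, 898 (9.23%) carried 2 or more annotated transcripts, and these are described here against the 8832 genes that carried 1. They were found by counting transcript identifiers under each gene identifier, and no measured value entered the choice. Among them 767 genes had 2 transcripts, 108 had 3, 20 had 4 and 3 had 5. Together they held 1953 of the 10785 transcripts.

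The annotation accompanies 13 libraries in 8 groups from budding yeast, fission yeast and N. crassa, which map nucleosomes by sequencing the DNA that they keep from digestion by micrococcal nuclease (MNase-seq). The 2 N. crassa libraries came from wild-type conidia, its asexual spores, that had germinated over 3.5 h and were fixed with 1% formaldehyde for 10 min. No library enters these values, because the file used is an annotation and holds no reads. Whether any of these transcripts is made in germinating conidia was not tested.

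A gene yields several transcripts when transcription begins at different bases, when the transcript is cut and polyadenylated at different bases, or when introns are removed differently. The spliceosome joins exons from the 5' splice site, where an intron starts, to the 3' splice site, where it ends. A whole exon can be skipped, an intron can be left in, or either splice site can move. In fungi intron retention is known as the common form, whereas exon skipping is prominent in animals. A transcript whose stop codon lies well before its last exon junction can be degraded by nonsense-mediated decay, a pathway also known in Neurospora. Nucleosome profiles are usually aligned on transcript starts, so a gene with several starts offers several alignment points.

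The 7 sequences of the assembly, numbered 1 to 7, stood in for replicates, which an annotation does not have. Each quantity was computed per sequence and is given as mean ± SD over the 7, so the SD tells how sequences vary among themselves; it holds no measurement error. Every test compared values within sequences by an exact permutation test (two-sided, flipping signs), in which the smallest p that 7 sequences allow is 0.0156. The p-values of 17 tests, 1 of them not printed because its direction is fixed, were adjusted together by the Benjamini-Hochberg method. N. crassa DNA sequence was not used, so the letters at splice sites and starts were not examined.

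The members were spread over every sequence. Sequence 1 held the most, 248 of its 2347 genes (10.6%), and sequence 6 the fewest, 73 of its 988 (7.39%). The median over sequences was 8.85% (SD 1.16 percentage points, n = 7 sequences). Both strands held them at similar shares, with 443 of 4898 genes on the plus strand and 455 of 4832 on the minus strand.

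Intron retention was the most frequent difference between transcripts of a gene, followed by different first bases and different last bases, while exon skipping was rare. An intron of one transcript lay inside an exon of another in 554 of the 898 genes (61.7%). Transcripts began at different bases in 506 genes (56.3%) and ended at different bases in 384 (42.8%). The start of an intron (5' splice site) was shifted in 150 genes (16.7%), the end of an intron (3' splice site) in 157 (17.5%), and an exon was skipped in 30 (3.34%). A gene can fall in several of these 6 classes. Against the whole annotation the shares are small: retention concerned 5.69% and skipping 0.308% of all genes.

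**Figure D1:**
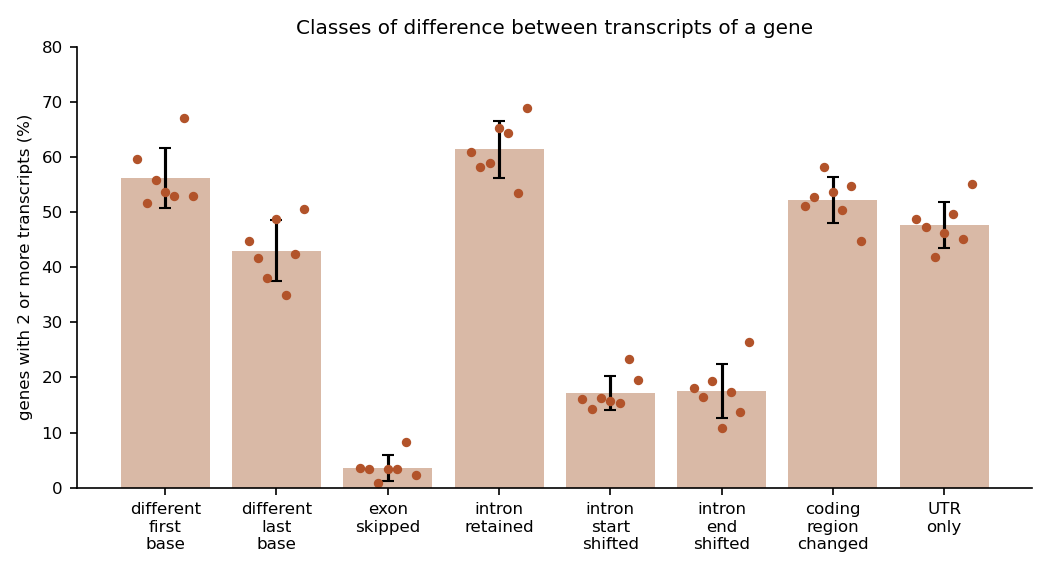
Share of genes with 2 or more transcripts in each class of difference (vertical axis, %); bars are means over 7 sequences, error bars SD, and points the single sequences. Intron retention averages 61.5% and exon skipping 3.55%, and the points of these classes do not overlap.

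Retention exceeded skipping on 7 of 7 sequences. Genes with a retained intron averaged 61.5% ± 5.19 and genes with a skipped exon 3.55% ± 2.28 (SD, n = 7 sequences). Per sequence, retention had a lowest share of 53.4%, a median of 60.9% and a highest of 69.0%, against 0.775%, 3.31% and 8.22% for skipping, so the ranges lay far apart. The difference of 57.9 percentage points passed the exact permutation test (p = 0.0156, adjusted p = 0.0221). Skipping needs an internal exon and retention does not. Among genes with 2 or more introns in some transcript the shares averaged 63.6% for retention and 4.07% for skipping, an alternative chosen after seeing the data.

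Starts differed more often than ends. Averaged over sequences, 56.3% ± 5.47 of the genes had different first bases and 43.0% ± 5.57 had different last bases (SD, n = 7 sequences). The share with different starts was 51.6% at the lowest, 53.7% at the median and 67.1% at the highest, against 34.9%, 42.5% and 50.6% for ends. The ranges did not overlap, but came close. The difference of 13.2 ± 7.93 percentage points (SD) was above 0 on 7 of 7 sequences (exact permutation p = 0.0156, adjusted p = 0.0221), from 2.30 points on sequence 7 to 24.7 on sequence 6. Counting only differences of 50 bp or more, it was 21.8 points with the same adjusted p. Among genes with both UTRs annotated in every transcript, an alternative chosen after seeing the data, it was 13.4 points, also with that adjusted p.

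Different starts and ends often went together. Of the genes with different last bases, 304 also had different first bases, which is 79.2% of the 384 genes with different ends and 60.1% of the 506 with different starts. Another 202 genes differed in the first base but shared the last, and 80 shared the first base but differed in the last. The remaining 312 genes (34.7%) had the same outer bases in all transcripts and differed inside.

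Single classes and combinations of 3 were both common. One class alone was found in 364 genes, 2 classes in 240, 3 in 240, 4 in 43 and 5 in 9. The most frequent combination was a retained intron with different first and last bases in 180 genes, and the next was a retained intron alone, in 161 (17.9%). Different first bases alone were found in 68 genes, a shifted intron end alone in 63 and a shifted intron start alone in 55. In 111 genes (12.4%) none of the 4 splicing classes occurred. All 898 genes nevertheless had an intron in at least 1 transcript (0 without). Genes outside the splicing classes can still differ in their introns. In NCU06069, where different first bases were the only structural class, T0 had 2 introns and T1 had 1.

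Most genes with different starts had them further apart than 150 bp, about the length of a nucleosome footprint. The outermost starts were separated by 150 bp or more in 298 of the 506 genes (58.9%), with quartiles of 84 and 435 bp. A transcript without an annotated 5' UTR starts at its first coding base, and genes with such transcripts are included. In NCU00124, for example, T0 had a 5' UTR of 0 bp and T1 one of 1191 bp, which gave a separation of 1191 bp. Ends were closer together: the median separation was 104.5 bp (quartiles 26 and 278 bp) in the 384 genes with different ends, and 152 of them (39.6%) reached 150 bp. Very small differences were commoner at ends, where 51 genes differed by under 10 bp, than at starts, where 17 did. These 2 distributions are given as a description and their difference was not tested.

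**Figure D2:**
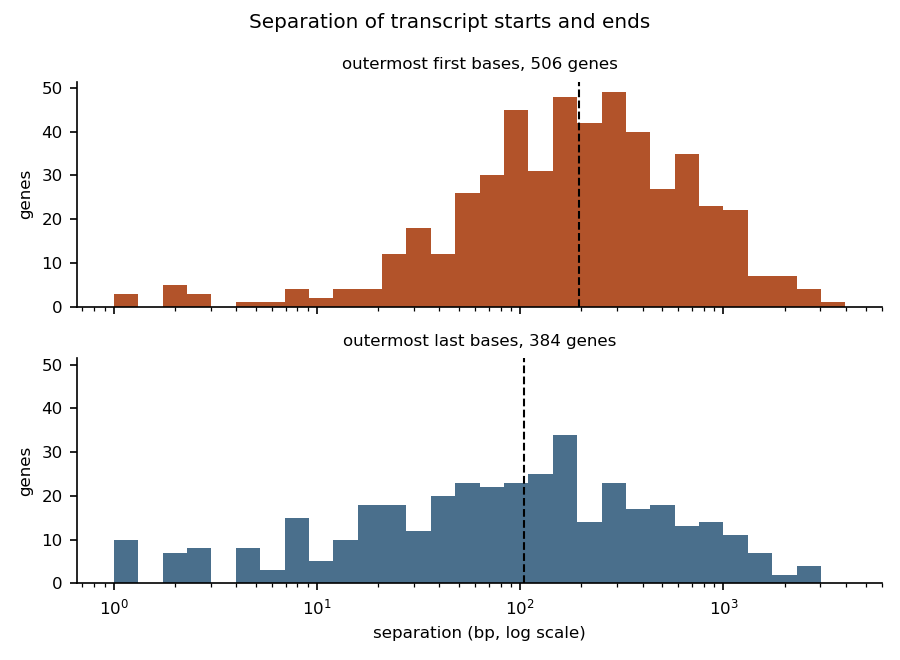
Number of genes (vertical axis) by the distance between their outermost first bases (upper panel, 506 genes) and outermost last bases (lower panel, 384 genes), on a log axis in bp; dashed lines mark the medians. The medians are 195.5 bp for starts and 104.5 bp for ends, and ends have more genes with small separations.

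Transcripts with different starts mostly had overlapping first exons. These exons of the outermost transcripts overlapped in 358 of the 506 genes (70.8%) and were separate in 148 (29.2%). The later start fell inside an exon of the other transcript in 381 genes and inside one of its introns in 125. Both transcripts shared their first coding base in 378 genes (74.7%), so the different starts there changed the 5' UTR, the stretch before the coding region. In 59 genes (11.7%) the later start lay beyond the coding start of the other transcript. At the other end, the last exons overlapped in 363 of the 384 genes (94.5%), and the last coding base was shared in 325 (84.6%).

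NCU16848, at 4389473 to 4394816 of sequence 4 (plus strand), had the widest separation of starts, 3107 bp. Its transcript T1 had a 5' UTR of 1115 bp, against 4161 bp in T0, before the same coding region of 564 bp, the largest exonic difference among genes that differed in UTRs alone. NCU06069, at 1910529 to 1912116 of sequence 7 (plus strand), stood at the lower median separation of starts, 194 bp. Its T1 began beyond the coding start of T0 and coded for 393 bp, against 555 bp in T0.

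The widest separation of ends was 2883 bp, in NCU15835 at 1287913 to 1296083 of sequence 7 (minus strand). Its T2 stopped early, with a coding length of 2937 bp, against 3717 bp in T0, and its T1 began 591 bp before the other transcripts. NCU08944, at 5782504 to 5784122 of sequence 5 (plus strand), stood at the lower median of end differences with 104 bp. It also differed by 42 bp at its starts and by 13 bp at one intron end, from 5782707 to 5782719, and its coding length of 708 bp was the same in both transcripts.

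**Figure D3:**
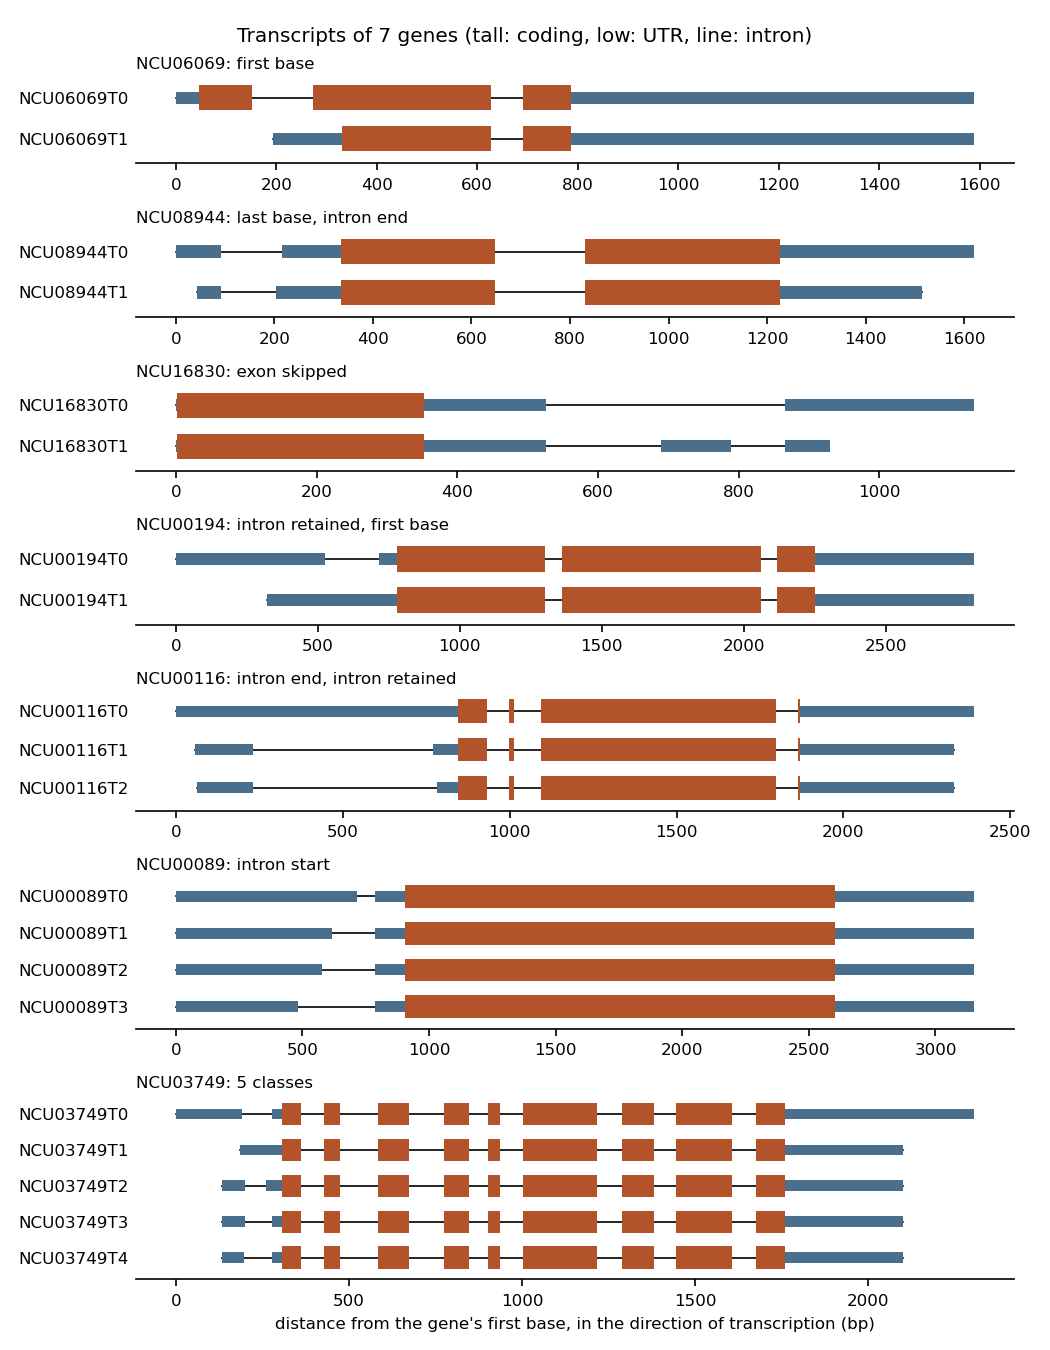
Transcripts of 7 genes drawn along the distance from each gene's first base in the direction of transcription (horizontal axis, bp); tall blocks are coding regions without the stop codon, low blocks UTRs and lines introns. NCU16830 shows a skipped exon of 100 bp, NCU00194 a retained intron of 192 bp in the 5' UTR, and NCU00089 4 transcripts that differ at 1 intron start.

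Introns of UTRs were retained more often than introns of coding spans. The genes with several transcripts held 3211 different introns, of which 686 (21.4%) were retained in another transcript of the gene. Of the introns in 5' UTRs 320 of 826 were retained, of those in coding spans 292 of 2247, and of those in 3' UTRs 74 of 138. Per sequence these shares averaged 38.2% ± 6.29, 13.1% ± 1.46 and 52.6% ± 9.73 (SD, n = 7 sequences). The lowest UTR share on any sequence, 30.5%, lay above the highest coding share, 14.5%. The order was not among the tests set and is given as a description. One retained intron was found in 459 genes, 2 in 73, 3 in 14, 4 in 5, 5 in 2 and 9 in 1.

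The longest retained intron measured 1659 bp, in NCU05685 on the plus strand of sequence 3. The intron of T1 from 498381 to 500039 lay inside an exon of T0, which began 2744 bp after T1 and had the longer coding region. T1 coded for 1101 bp, against 1203 bp in T0. NCU00916, at 6744520 to 6747976 of sequence 1 (minus strand), stood at the lower median over genes of each gene's largest retained intron, 91 bp. Its transcripts shared both outer bases but began coding at 3 different places, with coding lengths of 2382 bp in T0, 1758 bp in T1 and 1638 bp in T2.

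Retained introns of coding spans were more often a whole number of codons long than other introns. Retention of such an intron within a coding region moves no reading frame. Of the 292 retained introns within coding spans, 174 (59.6%) had a length that is a multiple of 3, against 650 of the 1955 other coding-span introns of the same genes (33.2%) and 4584 of 13672 in genes with 1 transcript (33.5%). Averaged over sequences the shares were 61.3% ± 13.9 for retained and 32.5% ± 3.56 for other introns (SD, n = 7 sequences). Retained introns had a lowest share of 36.0%, a median of 62.03% and a highest of 75%, against 26.0%, 33.5% and 36.7% for other introns, so the 2 ranges overlapped slightly. The difference of 28.8 percentage points was above 0 on 7 of 7 sequences (exact permutation p = 0.0156, adjusted p = 0.0221).

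A coding region of the retaining transcript can run through a retained intron or not. Where it did, 126 of 164 lengths (76.8%) were multiples of 3, while 20 left a remainder of 1 and 18 a remainder of 2. Where it did not, 48 of 128 lengths (37.5%) were multiples of 3. Whether a coding region runs through an intron depends itself on the reading frame and so on the length, and the division was made after seeing the data. These shares are therefore a description, with no test. In UTRs, 96 of 320 retained introns in 5' UTRs (30.0%) and 19 of 74 in 3' UTRs (25.7%) were multiples of 3.

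**Figure D4:**
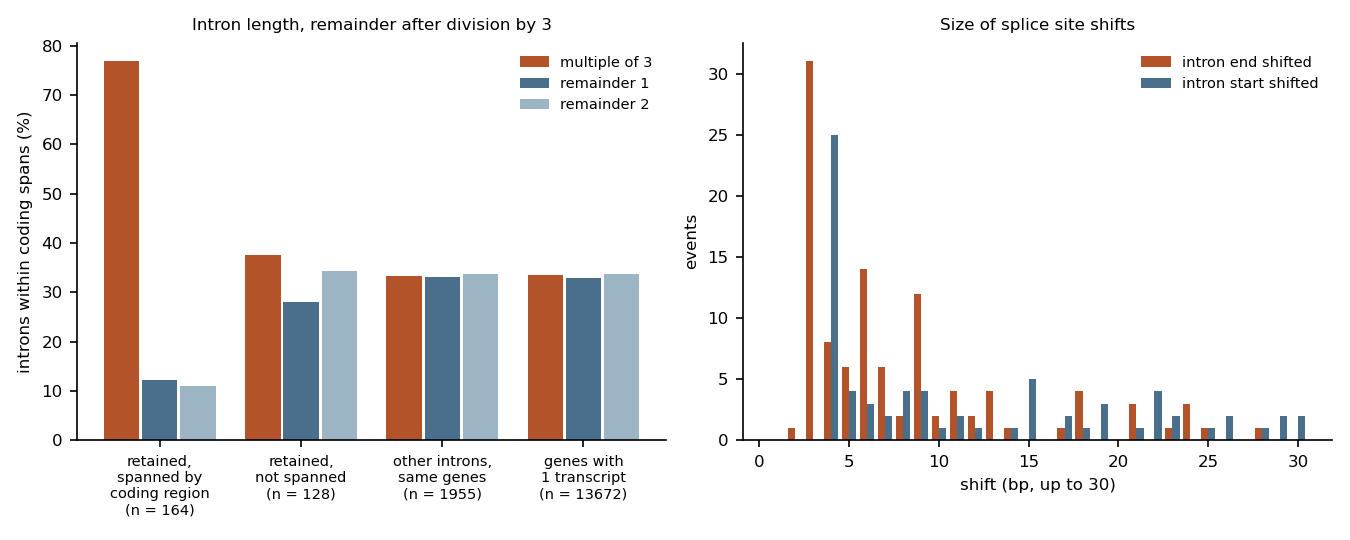
Left, share of coding-span introns (vertical axis, %) whose length is a multiple of 3 or leaves a remainder of 1 or 2, for retained introns spanned or not spanned by a coding region, the other introns of the same genes, and genes with 1 transcript. Right, number of splice site shifts (vertical axis) by size in bp up to 30. Multiples of 3 make up 76.8% of the spanned retained introns, and shifts peak at 3 bp for intron ends and 4 bp for intron starts.

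Over all places together retained introns had the longer median, but within places they did so in coding spans only. Their median length averaged 89.9 ± 10.9 bp, against 76.7 ± 1.52 bp for the other introns of the same genes (SD, n = 7 sequences). The difference of 13.1 bp was above 0 on 6 of 7 sequences and 0 on the remaining one (exact permutation p = 0.0313, adjusted p = 0.0409). Within 5' UTRs retained introns had the shorter median, 104.5 bp against 132 bp over all sequences, as they did within 3' UTRs, 70 bp against 73.5 bp. Within coding spans they had the longer one, 80 bp against 72 bp. With means in place of medians the difference was 7.42 bp with an adjusted p of 0.465 in the exact permutation test. Leaving out any sequence but the fourth gave an exact permutation p of 0.0625, and among introns of 5' UTRs alone the difference was -19.4 bp with an adjusted p of 0.349.

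Skipped exons were short. There were 35, from 21 to 642 bp long, and their median length was 100 bp. Of the 22 inside a coding span 13 (59.1%) were multiples of 3, and of the 13 outside 4 (30.8%) were. With so few exons this is a description. The longest skipped exon was the internal one of NCU03981 on the minus strand of sequence 6, from 2308711 to 2309352. It measured 642 bp, and T1 without it coded for 1704 bp, against 2346 bp in T0, so exactly the skipped bases were lost. NCU16830, at 3998043 to 3999176 of sequence 4 (plus strand), had its skipped exon, of 100 bp, in the 3' UTR, and both transcripts coded for 351 bp.

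The ends and starts of introns were shifted in similar numbers of genes. Shifted ends averaged 17.5% ± 4.92 and shifted starts 17.2% ± 3.12 of genes (SD, n = 7 sequences), and the difference of 0.24 percentage points, with sequences from -9.59 to 6.90, did not pass (exact permutation p = 0.938, adjusted p = 0.938). The sizes were unlike. Intron ends shifted 174 times, by 12 bp at the median, and 80 of these shifts were under 10 bp. Intron starts shifted 172 times, by 42 bp at the median, and 42 of these were under 10 bp. When differences under 10 bp were not counted, shifted starts were the more frequent, with 8.90% of genes for ends and 13.0% for starts (exact permutation adjusted p = 0.0379), and ends were the more frequent on 1 of 7 sequences. At 50 bp or more the shares were 5.38% for ends and 7.34% for starts, which did not pass (exact permutation p = 0.0938). Among genes with exactly 2 transcripts ends had the larger share, 14.5% against 12.2%, which did not pass either (exact permutation p = 0.234).

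The most frequent shift was 3 bp at intron ends and 4 bp at intron starts. A shift of exactly 3 bp made up 31 of the 174 shifts of intron ends (17.8%), followed by 14 of 6 bp and 12 of 9 bp. Among intron starts 0 shifts measured 3 bp, and 25 of 172 (14.5%) measured 4 bp. Inside coding spans 52 of 86 end shifts (60.5%) were multiples of 3, and 32 of 85 start shifts (37.6%) were. Outside coding spans these came to 39 of 88 (44.3%) and 22 of 87 (25.3%). A shift of 3 bp within a coding region adds or removes 1 codon, whereas one of 4 bp moves the reading frame.

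The widest shift of an intron start, 753 bp from 2618756 to 2619508, lay in NCU02404 on the minus strand of sequence 7. This gene had 4 transcripts of 9 to 11 exons and fell in 6 classes when the changed coding region is counted. T2 and T3 coded for 1302 bp, against 1449 bp in T0 and T1. The widest shift of an intron end, 345 bp, lay in NCU00006 on the minus strand of sequence 3 from 2251883 to 2252227. Its coding length was 2124 bp in T1, against 2376 bp in T0. Ranked by the largest shift in each gene, the lower medians over genes were 41 bp for intron starts and 13 bp for intron ends. They were held by NCU00459 on sequence 3, where the shift changed the 5' UTR alone (425 bp in T1, 466 bp in T0), and by NCU00116 on sequence 3.

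Splice site choice alone can give many transcripts. In NCU00089, at 2574646 to 2577796 of sequence 3 (plus strand), all 4 transcripts shared their outer bases, their single intron's last base and a coding region of 1698 bp. They differed in the first base of that intron, by up to 233 bp, which left 5' UTRs of 835 bp in T0, 736 bp in T1, 694 bp in T2 and 602 bp in T3.

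Changed coding regions and changes of UTRs alone were about equally frequent. The coding region differed between transcripts in 469 genes (52.2%) and was identical in all transcripts of 429 (47.8%), which differed in UTRs only. Per sequence the changed share averaged 52.3% ± 4.15 (SD, n = 7 sequences), with 44.8% at the lowest (sequence 7), 52.7% at the median and 58.1% at the highest (sequence 3). No gene had transcripts without any difference (0 of 898). By class, the coding region changed in 24 of the 30 genes with a skipped exon, 90 of 150 with a shifted intron start, 87 of 157 with a shifted intron end and 290 of 554 with a retained intron. Where every retained intron lay in the 5' UTR this was 34 of 239 genes, and in the 3' UTR 3 of 62.

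Transcript numbers followed length in all 898 genes. The coding length, and exonic length where coding lengths were equal, never rose from T0 onward, so T0 is the transcript with the longest coding region. A comparison of further transcripts with T0 therefore has a fixed direction, and no test of it is given. Of the 1055 further transcripts, 522 (49.5%) had the coding region of T0 and 531 coded for less. The further transcripts averaged 1802 ± 132 bp of coding length and T0 1899 ± 127 bp (SD over 7 sequences).

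Changes of the coding region mostly kept its frame. In the 533 further transcripts with another coding region than T0, the difference in coding length was 111 bp at the median, with quartiles of 51 and 252 bp, and 89 differed by at most 30 bp. The first coding base moved and the last was kept in 261 (49.0%), both were kept in 164 (30.8%), the last moved and the first was kept in 101 (18.9%), and both moved in 7. In 335 of them (62.9%) the shorter coding region lay wholly within the longer in the same frame. Some shared bases were read in another frame in 56 (10.5%).

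The share of transcripts with a stop codon more than 50 bp before the last exon junction did not differ past the threshold between further transcripts and T0. Further transcripts held one in 80 of 1055 cases (7.58%), T0 of the same genes in 48 of 898 (5.35%) and the transcripts of genes with 1 transcript in 165 of 8832 (1.87%). The shares averaged 8.18% ± 2.52 and 5.74% ± 1.79 for further transcripts and T0 (SD, n = 7 sequences). The difference of 2.45 percentage points, above 0 on 6 of 7 sequences, did not pass after adjustment (exact permutation p = 0.0469, adjusted p = 0.0569). In 6 of 7 recalculations that left out a sequence it did not pass either. The exception left out sequence 7, the only one below 0 (-1.21 points), and gave 3.05 points (exact permutation adjusted p = 0.0379). The order of transcripts by coding length bears on this comparison too.

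Genes with the most transcripts were of different kinds. NCU02793 lies at 9117558 to 9151762 of sequence 1 (plus strand). It had 5 transcripts and also the largest difference in coding length, 7878 bp. Its T4 used the end of one intron 11 bp earlier than T0, from 9143192 to 9143202, and its stop codon ended at 9143265. T4 coded for 24339 bp, against 32217 bp in T0, with 6377 exonic bases between stop codon and last junction. The other genes with 5 transcripts were NCU03749 on sequence 5 and NCU10853 on sequence 4; NCU10853 was chosen after its values were seen. In NCU03749 all 5 transcripts coded for 846 bp, and 5 of the 6 structural classes occurred around that unchanged region, with starts up to 186 bp and ends up to 204 bp apart. In NCU10853 all transcripts shared their outer bases, and T2, T3 and T4 coded for 1932 bp, against 2637 bp in T0 and T1.

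Among genes with 4 transcripts, NCU02356 at 2767393 to 2773846 of sequence 7 (plus strand) had one coding region of 3501 bp behind 5' UTRs of 1757 bp in T0, 772 bp in T1 and 469 bp in T2 and T3. Its starts spread over 1071 bp and its ends over 960 bp. NCU00651 on sequence 1 likewise kept a coding length of 1236 bp while its 5' UTR ranged from 698 bp in T3 to 1024 bp in T0. NCU02254 on sequence 7 fell in 6 classes when the changed coding region is counted, among them a skipped exon of 85 bp in the 5' UTR and starts 1000 bp apart. Its T3 coded for 1089 bp and the others for 1152 bp.

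NCU01465 on sequence 5 had a T3 that coded for 4320 bp, against 4500 bp in the other transcripts. In NCU02460 on sequence 7 the coding lengths were 1419, 1410, 1410 and 1278 bp from T0 to T3, and T1 ended 1374 bp beyond the rest. Ranked by the range of coding length in each gene, NCU00124 on sequence 3 stood at the lower median over genes with 114 bp. Ranked by the range of exonic length among genes that differed in UTRs only, NCU00194 on sequence 3 did so with 130 bp. Only NCU00468 on sequence 3 and NCU03290 on sequence 1, also named after their values were seen, fell in none of the 6 structural classes. Their introns overlapped without sharing either end, as in 27 genes in all, and T1 coded for 114 bp less in NCU00468 and 225 bp less in NCU03290.

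Genes with several transcripts were longer and held more introns than genes with 1. Since the longest of several transcripts is long by choice, T0 was used for all genes, and the choice was varied because T0 itself has the longest coding region. The median span of T0 averaged 2915 ± 118 bp in genes with several transcripts and 2032 ± 61.1 bp in genes with 1 (SD, n = 7 sequences). Sequence medians ran from 2773 over 2855 to 3052 bp, against 1948 over 2028 to 2138 bp. Span thus differed by 883 ± 116 bp on average, with each of 7 sequences above 0 (exact permutation p = 0.0156, adjusted p = 0.0221); within equal bins of coding length it averaged 556 bp, with the same adjusted p.

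Introns per transcript showed the same order. They averaged 2.55 ± 0.164 in genes with several transcripts and 1.64 ± 0.0606 in genes with 1 (SD, n = 7 sequences), with ranges of 2.27 to 2.74 and 1.55 to 1.75 that did not overlap. The difference of 0.905 passed (exact permutation p = 0.0156, adjusted p = 0.0221) and averaged 0.875 within bins of coding length. The comparison is not independent of how genes come to have several transcripts. Of the 898 genes, 787 were in a splicing class, each of which requires an intron, and 0 lacked introns in all transcripts. Genes with 1 transcript meet no such condition. T0 had no intron in 48 of 898 genes (5.35%), against 1747 of 8832 genes with 1 transcript (19.8%). The share of genes with several transcripts was 2.67% among genes whose T0 had no intron, 5.94% with 1 intron, 10.7% with 2, 16.3% with 3, 18.2% with 4, 17.6% with 5 and 22.2% with 6 or more.

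**Figure D5:**
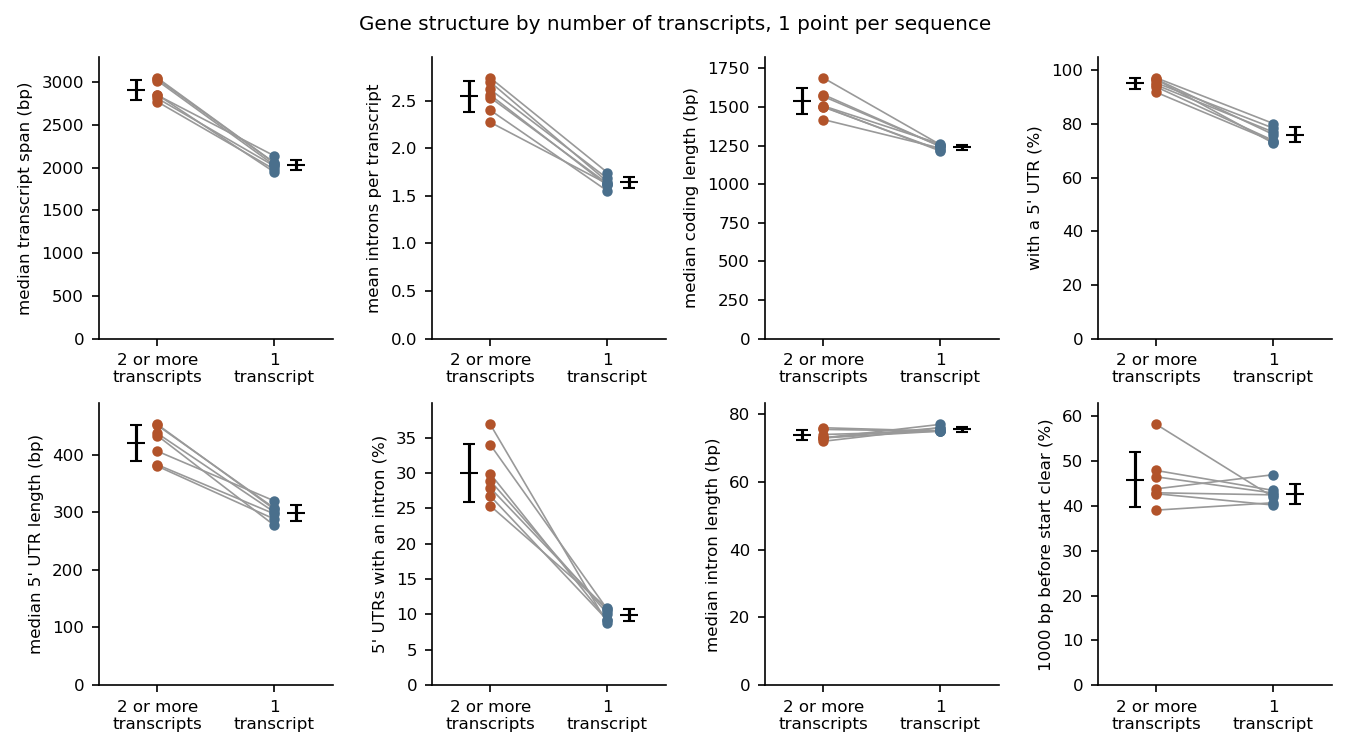
Structure of the lowest-numbered transcript in genes with 2 or more transcripts (left in each panel) and genes with 1 (right), 1 point and line per sequence, with mean and SD over 7 sequences beside the points; vertical axes give bp, numbers or % as labelled. Span, introns, coding length and the 5' UTR measures lie higher in genes with 2 or more transcripts on every sequence, whereas intron length and the share of clear starts overlap.

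Coding regions were longer too, by an amount that depended on the transcript used. The median coding length averaged 1538 ± 85.0 bp in genes with several transcripts and 1239 ± 16.9 bp in genes with 1 (SD, n = 7 sequences), a difference of 299 bp (7 of 7 sequences, exact permutation p = 0.0156, adjusted p = 0.0221). With the transcript of shortest coding region in place of T0 the difference was 189 bp, and among genes with both UTRs annotated it was 144 bp, both with the same adjusted p.

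UTRs were annotated far more often in genes with several transcripts. A 5' UTR was present in 95.1% ± 1.92 of them, against 75.9% ± 2.75 of genes with 1 transcript, and a 3' UTR in 97.0% ± 1.20, against 77.6% ± 2.61 (SD, n = 7 sequences). The ranges over sequences did not overlap, and both differences, 19.2 and 19.4 percentage points, passed (exact permutation p = 0.0156, adjusted p = 0.0221). As with introns, the comparison is not independent of how genes come to have several transcripts. Of the 898 genes, 429 differed in UTRs only, which requires an annotated UTR, and genes with 1 transcript meet no such condition. Neither UTR was annotated in 13 of 898 genes (1.45%), against 1645 of 8832 (18.6%). Read the other way, 0.784% of genes with neither UTR, 5.22% with 1 and 11.5% with both had several transcripts. Among genes with both UTRs annotated, the differences stayed above 0 on 7 of 7 sequences, at 602 bp for span and 0.922 for introns per transcript, each with an adjusted p of 0.0221 in the exact permutation test.

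Where annotated, UTRs were also longer. Median 5' UTRs averaged 420 ± 30.8 bp in genes with several transcripts, against 299 ± 13.7 bp in genes with 1, and median 3' UTRs 435 ± 27.6 bp, against 334 ± 14.6 bp (SD, n = 7 sequences). The differences of 121 bp and 101 bp were above 0 on 7 of 7 sequences (exact permutation p = 0.0156, adjusted p = 0.0221 for each). With the shortest transcript of each gene by exonic length they were 49.1 bp and 64.3 bp, and with the longest the 5' UTR difference was 219 bp, all with that adjusted p.

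Of the structure measures tested, the largest ratio between the groups was that of 5' UTRs interrupted by an intron. Among annotated 5' UTRs of T0, 30.0% ± 4.11 held an intron in genes with several transcripts and 9.90% ± 0.863 in genes with 1 (SD, n = 7 sequences), a ratio of 3.03. The lowest, median and highest sequences had 25.4%, 28.9% and 36.9%, against 8.73%, 10.1% and 10.9%. The difference of 20.1 percentage points passed (exact permutation p = 0.0156, adjusted p = 0.0221) and averaged 15.2 points within equal bins of 5' UTR length. With the transcript of shortest coding region it was 46.1 points and with the shortest by exonic length 39.1 points. Both choices act only on genes with several transcripts. There a shorter coding region can mean a later coding start, and a shorter exonic length an intron removed. Either can raise this share by the choice itself, so the larger values add no support. The comparison of T0 is not independent of how genes come to have several transcripts either. An intron of the 5' UTR that is retained in another transcript gives a gene several transcripts. In 239 of the 898 genes every retained intron lay in the 5' UTR. Genes with 1 transcript meet no such condition, so part of the difference can come from the choice of genes. Of all genes with an intron in the 5' UTR of T0, 262 of 934 (28.1%) had several transcripts, against 596 of 6688 (8.91%) with an uninterrupted 5' UTR.

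For intron length and the space before the start, no difference passed the test. The median intron averaged 73.8 ± 1.47 bp in genes with several transcripts and 75.6 ± 0.787 bp in genes with 1 (SD, n = 7 sequences; difference -1.79 bp, exact permutation p = 0.0938, adjusted p = 0.106). The 1000 bp before the first base of T0 were free of other genes in 45.9% ± 6.14 of genes with several transcripts and in 42.7% ± 2.23 of genes with 1 (difference 3.22 percentage points, 5 of 7 sequences above 0, exact permutation p = 0.219, adjusted p = 0.232). Among genes with both UTRs annotated the shares were 44.4% and 37.8%, a difference of 6.59 points on 7 of 7 sequences that passed (exact permutation adjusted p = 0.0204).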

How the data were processed

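The file used is the gene annotation of N. crassa that the authors deposited. It belongs to no library, and its 81022 records give positions in bp, counted from 1, without a score, and its source field holds the name of an NC12 gene call set; its name gives strain OR74A. The sources used here do not state how it was made or corrected. Reads of the libraries, for which the submitters' processing notes name CASAVA and Bowtie2, were not analysed.

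Exon and CDS records were read into transcripts and compared pairwise within each gene. Retention required an intron strictly inside an exon of another transcript, skipping an internal exon strictly inside an intron, and a splice site shift 2 introns with 1 common end whose other ends lie in 1 exon. Bins of length were 4 of equal gene number over all genes. Sequences with at least 100 genes were the units. The members, classes and tests were chosen with earlier results of these data known. Genes are named by identifier: those with the most or second most transcripts (8 at most, in identifier order), in each class the gene with the largest difference and the one at the lower median over genes, each gene taken by its largest difference, and up to 3 with the most classes; 3 more are marked as chosen after their values were seen. Of the 9730 identifiers, 0 had a symbol in the table of names used, so no functions are given. Calculations ran in Python 3.11.15 with NumPy 2.4.6 and matplotlib 3.10.9. On a simulated annotation of 2100 genes, all 420 planted differences were recovered as planted. Each planted gene had 2 transcripts and a single class of difference, so combinations of classes were not covered. Alternatives covered the transcript used, the genes used, the smallest difference counted and each sequence left out; 15 of them, among them the transcript of shortest coding region and bins of 5' UTR length, were chosen after seeing the data. An annotation has no sequencing depth.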

Additional observations from a re-analysis of the deposited data

Results flagged for a closer look

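Among 27 sets of 7 sequence values that were checked, 2 held a sequence far from the rest; chance marks about 1 in 20 sets. The share of genes with a skipped exon was 8.22% on sequence 6, against 0.775% to 3.63% on the other sequences. The difference in the share of clear starts, genes with several transcripts minus genes with 1, was 16.3 percentage points on sequence 2, against -3.16 to 4.46 on the others. Without sequence 2 the difference in clear starts averaged 1.04 points.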

How the results depend on the processing

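Of 211 recalculations of 17 differences, 119 left out a sequence and 92 changed another choice, 15 of them chosen after seeing the data; 187 kept direction and side of the 0.05 threshold. Shifted intron ends minus starts was -4.12 percentage points for differences of 10 bp or more, -1.97 for 50 bp or more and -0.21 over transcript pairs, and -0.87 to 1.88 with a sequence left out. Intron length differed by -2.43 bp in the longest transcripts (past the threshold), and by 0.857 bp in the shortest by exonic length, 1.79 bp with both UTRs annotated and 9.02 bp with means. The difference in clear starts passed with both UTRs (6.59 points) and with the shortest coding region (4.72). Retained intron length differed by 7.42 bp with means, -19.4 bp in 5' UTRs, and 10.6 to 15.3 bp with a sequence left out, where 6 sequences allow no p under 0.0313. The frame difference without introns that a coding region spans, a choice that depends on their length and is no test of it, was 7.59 points, and the junction difference ranged from 1.98 to 3.05 with a sequence left out. The cause was not tested for any of these. Limiting the classes to genes with an intron removed no gene. For the replicate numbers of the libraries, no paired analysis was possible because no library enters a value; every test pairs values by sequence. The annotation limits all values to what its gene models record.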
